A study of Mus musculus with 10 samples.

Results

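Matrix metalloproteinases, their tissue inhibitors, the ADAMTS proteases with their protease-free relatives, and the lysyl oxidases were followed across 3 mouse muscles. The genes were taken by name, as all protein-coding genes of the count files whose symbol begins with Mmp and a number or is one of Timp1 to Timp4, Adamts or Adamtsl with a number, Lox, or Loxl1 to Loxl4. This gave 43 of the 16112 genes in the files, namely 12 of the 22 annotated Mmp genes, 4 of 4 Timp, 17 of 19 Adamts, 5 of 5 Adamtsl, and all 5 lysyl oxidase genes. The remaining 12 annotated genes (Mmp1b, Mmp7, Mmp8, Mmp10, Mmp13, Mmp20, Mmp21, Mmp24, Mmp25, Mmp27, Adamts18, and Adamts19) were not analyzed here.

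RNA-seq libraries were made from whole extensor digitorum longus (EDL), a fast muscle of the lower leg, from psoas, a fast muscle of the lower back, and from soleus, a slow postural muscle of the lower leg. All mice were homozygous wild type and of the strain B6C3Fe a/a-Ttnmdm/J, a line kept for the mdm allele of titin. The study's methods name no treatment for this work, and they state that the tissues came from mice also used in another study. EDL was sampled at 42, 54, and 44 days of age (replicates 1 to 3), psoas at the same ages, and soleus at 42, 44, 32, and 44 days (replicates 1 to 4). Among the 7 animal codes in the labels, 3 occur on 2 libraries each (psoas 1 with soleus 1, EDL 3 with soleus 2, and psoas 3 with soleus 4), so some muscles came from the same mouse. The study's methods name fewer mice than there are codes, and which codes share a mouse could not be worked out.

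Collagen and elastic fibers are laid down by fibroblasts and tendon cells as precursors that have to be trimmed, cross-linked, and later removed. Lysyl oxidases oxidize lysines of collagen and elastin so that the fibers can be cross-linked, and this step sets much of the stiffness of tendon and of the connective tissue sheaths of muscle. Matrix metalloproteinases and ADAMTS proteases are zinc enzymes that cut collagens, proteoglycans, and other matrix proteins, the TIMP proteins bind and block them, and the ADAMTS-like proteins share the non-catalytic domains of ADAMTS proteases and bind to fibrillin microfibrils.

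Total counts per library ran from 12737971 (soleus 3) to 50431713 (psoas 1), and the upper limit of an observed 0, 3 counts, corresponds to between 0.0595 and 0.236 CPM (counts of a gene scaled to the library total), which covers counting error only. The muscle labels held for fiber type, since Myh4, the myosin of the fastest fibers, lay between 38374 and 56666 normalized CPM in EDL and psoas and between 113 and 1692 in soleus, while Myh7, the slow myosin, lay between 6836 and 13574 in soleus and between 3.19 and 117 in the others. Levels in CPM are scaled with TMM factors, so that they can be compared between libraries, and levels are compared between genes only per kilobase of exon. The soleus libraries stood apart from each other for these genes. Soleus 3, the youngest and shallowest library, was the lowest of the 4 for 27 of the 43 genes (31.4% of all genes were lowest there), and soleus 2 was the highest for 27 of 43 (28.6% of all genes). Reads of EDL 1 and 2 and psoas 1 and 2 had been trimmed for quality, unlike the other 6 libraries, so that trimming is balanced between EDL and psoas and not between either of them and soleus. The sex was male for these 4 and soleus 1, female for EDL 3, psoas 3, and soleus 2 and 4, and not given for soleus 3. Within EDL and psoas, trimming and sex therefore cannot be told apart, and no sex term was fitted. A low share of mapped reads marked EDL 1, psoas 1 and 2, and soleus 1, which is not balanced between EDL and psoas. RNA integrity, as given in the paper's supplement, was higher in every EDL library than in every psoas and soleus library. It was lowest in psoas 1 within psoas and in soleus 3 within soleus. For EDL it cannot be told apart from the muscle, and no term for it was fitted.

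The promoter letters of 4 genes are shown because their levels set psoas apart from one or both lower leg muscles. For Mmp3 and Timp1 every psoas library lay below every library of both lower leg muscles. Mmp3 was low in these as well (0.604 to 0.697 normalized CPM in EDL and 0.158 to 0.684 in soleus), and Timp1 was 0.638 in soleus 3. Mmp23 was highest in EDL, and Mmp15 was highest in psoas. Each line gives the 250 bases before the RefSeq gene start (GRCm38.p6), 5′ to 3′ on the gene's strand, with matches of the AP-1 motif TGANTCA or of the TATA box TATAAA, searched on both strands, in capitals. Mmp23 has a further RefSeq start close by, whose window is not shown.
Mmp3 (chr9:7445572-7445821, plus strand): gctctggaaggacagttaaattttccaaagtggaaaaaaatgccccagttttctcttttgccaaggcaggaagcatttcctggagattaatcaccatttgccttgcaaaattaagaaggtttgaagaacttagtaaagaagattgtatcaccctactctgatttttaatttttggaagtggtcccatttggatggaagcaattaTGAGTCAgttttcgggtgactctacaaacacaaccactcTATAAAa
Timp1 (chrX:20869916-20870165, plus strand): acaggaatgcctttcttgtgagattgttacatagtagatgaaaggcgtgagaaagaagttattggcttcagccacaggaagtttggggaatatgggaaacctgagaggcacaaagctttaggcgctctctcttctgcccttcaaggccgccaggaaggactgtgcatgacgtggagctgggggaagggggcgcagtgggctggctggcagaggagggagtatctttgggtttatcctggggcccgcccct
Mmp23 (chr4:155653385-155653634, minus strand): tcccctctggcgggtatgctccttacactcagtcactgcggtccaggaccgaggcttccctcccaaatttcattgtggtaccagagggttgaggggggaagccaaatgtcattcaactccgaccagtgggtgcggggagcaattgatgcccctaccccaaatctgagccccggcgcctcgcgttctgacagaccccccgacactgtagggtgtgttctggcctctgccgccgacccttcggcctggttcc
Mmp15 (chr8:95352046-95352295, plus strand): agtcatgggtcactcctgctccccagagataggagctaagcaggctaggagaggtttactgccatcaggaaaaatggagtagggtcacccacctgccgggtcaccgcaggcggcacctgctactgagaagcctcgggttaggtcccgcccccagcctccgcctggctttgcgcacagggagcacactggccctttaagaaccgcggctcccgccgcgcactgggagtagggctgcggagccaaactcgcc
Of these 4 windows, that of Mmp3 held both motifs and the other 3 held neither. RefSeq promoters were at hand for 25 of the 43 genes (27 windows), and TGANTCA was found for Mmp3 and Mmp12, against 6.75% of 32851 mouse promoters of the same length. TATAAA was found for Mmp3, Adamts1, and Adamtsl2, against 12.4% of promoters. These matches describe letters in a window and were not tested against the levels.

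In psoas vs EDL, 3 of the 43 genes were called, all lower in psoas, and these were Lox, Mmp23, and Adamtsl3. Calls are from edgeR's quasi-likelihood test and need an adjusted p below 0.01 with more than a 2-fold difference, a rule that called 2.11% of all genes tested (1.57% lower and 0.54% higher in psoas). In soleus vs EDL, 3 genes were called, again all lower, namely Lox, Mmp23, and Adamtsl1 (5.77% of all genes, with 2.18% lower and 3.59% higher). In soleus vs psoas, Timp1 was called higher and Mmp15 lower in soleus (5.69% of all genes, with 2.99% higher and 2.71% lower). These comparisons share libraries, so that each is given by its own values. DESeq2's Wald test at the same thresholds called 13, 3, and 7 of the 43 genes, against 6.8%, 9.43%, and 8.58% of all genes. Of these, 12 were lower (4.13% of all genes) and 1, Mmp15, higher (2.66%) in psoas vs EDL. In soleus vs EDL the same 3 were lower (4.34%) and 0 higher (5.09%), and in soleus vs psoas 6 were higher (4.61%) and 1 lower (3.97%). With read trimming as a covariate edgeR called 7, 0, and 0 of the 43 in these 3 comparisons, and 605, 371, and 566 of all 16112 genes, where the fit without it called 340, 929, and 917. In fits of the muscles compared alone it called 4, 1, and 0 of the 43, and 153, 876, and 729 of all genes.

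**Figure D1:**
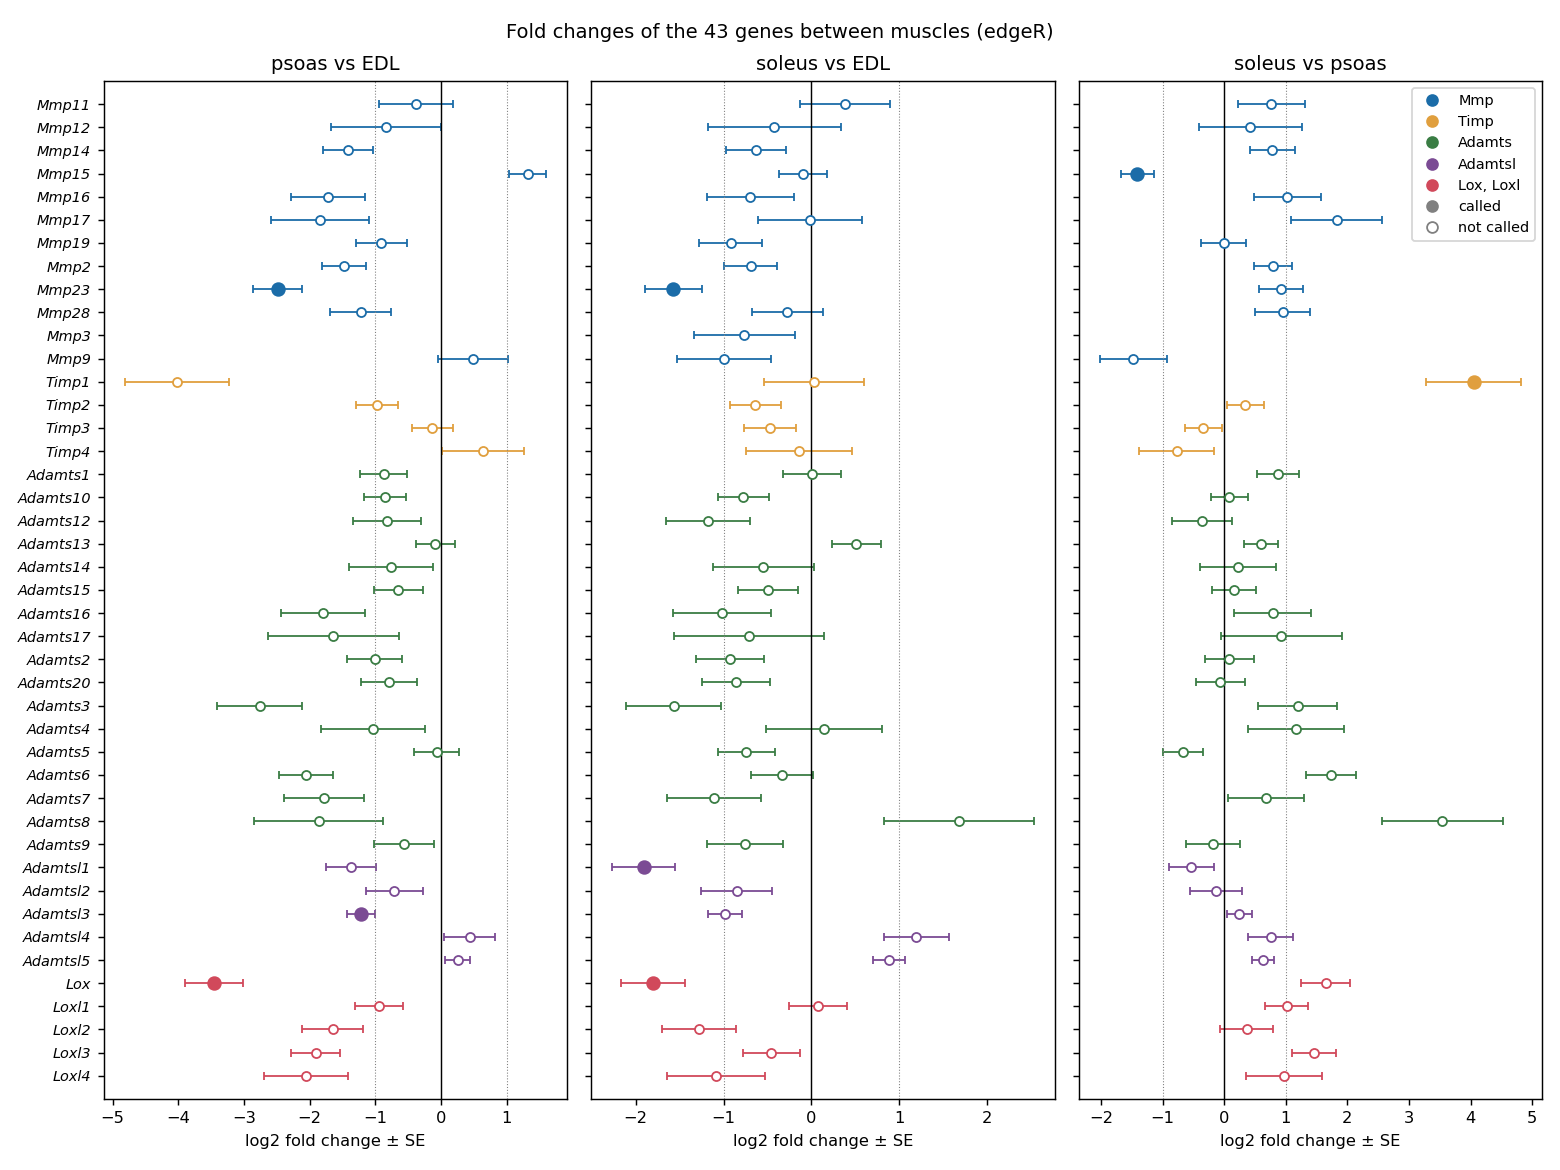
Log2 fold changes with standard errors (edgeR, 10 libraries) of the genes, 1 row per gene and 1 panel per comparison, colored by class, with filled points for called genes and dotted lines at a fold of 2. In the psoas vs EDL panel 38 of 43 genes have values below 0. Mmp3 is left out of both panels with psoas, where it had 1 count in all, and is counted among the 38.

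Most of the 43 genes had values of the same sign within each comparison, although few were called. The log2 fold change of psoas vs EDL was below 0 for 38 of the 43 genes (49.5% of all genes), including all 17 Adamts and all 5 lysyl oxidase genes, and its median was -1.01 against 0.01 over all genes. Every psoas library lay below every EDL library for 26 of the 43 genes (16.3% of all genes), and above it for Mmp15 alone (13.4%). At an adjusted p under 0.05 with no fold threshold, 12 of the 43 were lower in psoas (6.34% of all genes) and 1 was higher (4.76%). The same looser threshold gave 4 lower (8.8%) and 2 higher (9.79%) in soleus vs EDL, and 7 higher (7.75%) and 1 lower (6.78%) in soleus vs psoas. In soleus vs EDL the value was below 0 for 34 of 43 (53.1% of all genes), with a median of -0.69 against -0.05 over all genes. All soleus libraries lay below all EDL libraries for 11 genes (14.3%) and above them for Adamtsl5 alone (15.2%). In soleus vs psoas it was below 0 for 11 of 43 (48.6%), with a median of 0.68 against 0.02, and all soleus libraries lay above all psoas libraries for 8 genes (13.9%) and below them for Mmp9 and Mmp15 (11.9%). At an unadjusted p under 0.05, 24 of the 43 were lower and 1 higher in psoas vs EDL (15.4% and 13.6% of all genes), 13 lower and 2 higher in soleus vs EDL (18.1% and 17%), and 2 lower and 12 higher in soleus vs psoas (13.3% and 15.1%). All these counts come from the same libraries and are not independent of each other. Mmp3, Mmp17, Timp1, Adamts4, and Adamts17 reached 10 counts in no psoas library. They met the filter of the deposited counts (10 reads in 3 or more libraries) through the lower leg muscles alone. All of them are among the 38, all but Adamts4 among the 26, and Mmp3, Mmp17, and Timp1 among the 8. Their values against psoas are not independent of that filter.

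In whole muscle, fewer cells of a type and less RNA per cell cannot be told apart, and markers of tendon moved with these genes. All 10 of 10 tendon markers (among them Tnmd, Scx, Mkx, and Comp) were called lower in psoas vs EDL and 8 of 10 were called higher in soleus vs psoas. Over all genes, 1.57% were called lower in psoas vs EDL, 2.18% lower in soleus vs EDL, and 2.99% higher in soleus vs psoas. Tnmd, Kera, Col11a1, and Cilp2 also rank highest on the component of the paper's principal component analysis that separates EDL from psoas. The markers were chosen with such results known, so that their counts are not independent of these data. In soleus vs EDL no tendon marker was called by edgeR or DESeq2, although 6 were lower at an unadjusted p under 0.05 (18.1% of all genes). No tendon marker was at 0 in any library. Their summed level was between 807 and 866 normalized CPM in EDL and between 32.4 and 84.9 in psoas. In soleus it was 275, 568, 119, and 315 in replicates 1 to 4, so that soleus 3 was lowest and soleus 2 highest, as for most of the 43 genes. The sum of 10 muscle fibroblast markers differed less, with 1196 to 1628 in EDL, 535 to 733 in psoas, and 810 to 1134 in soleus, and 3 of 10 were called lower in psoas and 4 of 10 lower in soleus, both against EDL. None of these 10 was at 0 in a library. Mast cell markers, 5 of 6 measured, summed to 14.7 to 22.1 in EDL, 2.62 to 5.78 in psoas, and 9.24 to 15.7 in soleus, and 3 were called lower in psoas vs EDL. Of 8 macrophage markers, 1 (Mrc1) was called, lower in psoas and in soleus against EDL, and the sums were 123 to 322 in EDL, 52.0 to 137 in psoas, and 100.2 to 157 in soleus. Of the 7 endothelial markers none was called in any of the 3 comparisons by edgeR or DESeq2. At an unadjusted edgeR p under 0.05, 4 were lower and 1 higher in psoas vs EDL (15.4% and 13.6% of all genes). In soleus vs EDL 1 was lower and 1 higher (18.1% and 17%), and in soleus vs psoas 0 were lower and 1 higher (13.3% and 15.1%). Their sums lay between 139 and 235 over the 10 libraries, and no endothelial marker was at 0 in a library. Of 9 cartilage and bone markers 4 were measured (Acan, Matn1, Ibsp, Bglap, and Sp7 were not among the genes analyzed), and 3 of the 4 were at 0 in some library. Their sum was 7.59 to 15.6 normalized CPM in EDL, 1.27 to 1.97 in psoas, and 1.57, 4.37, 0.159, and 2.16 in soleus 1 to 4, with soleus 3 again lowest and soleus 2 highest. Among them Matn3 was called lower in psoas vs EDL, and Col9a1 was called lower in soleus against both EDL and psoas. The part of these cell types in the differences of the 43 genes was not tested.

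**Figure D2:**
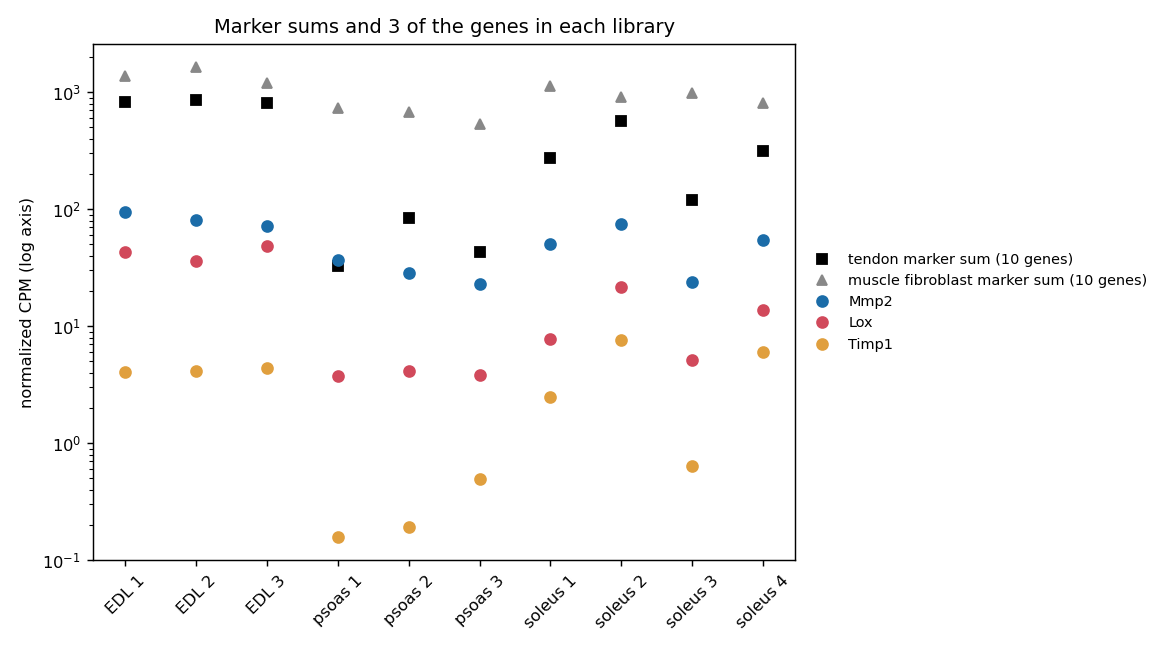
Normalized CPM (log axis) of Lox, Timp1, and Mmp2 and summed normalized CPM of 10 tendon and 10 muscle fibroblast markers in each of the 10 libraries, 1 point per library. The tendon sum lies at 807 or above in EDL and at 84.9 or below in psoas, and soleus 2 lies above soleus 3 in each of the plotted quantities except the fibroblast sum.

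Lox encodes the founding lysyl oxidase, which acts on both collagen and elastin, and its difference between psoas and EDL was the largest among the called values of that comparison. Lox had 43.4, 36.0, and 48.8 normalized CPM in EDL 1 to 3, 3.75, 4.12, and 3.82 in psoas 1 to 3, and 7.73, 21.5, 5.18, and 13.9 in soleus 1 to 4. The 3 muscles did not overlap, with EDL highest and psoas lowest, and the soleus libraries spread over a wider range than those of the other muscles. Its log2 fold change was -3.45 ± 0.44 (SE) in psoas vs EDL (edgeR adjusted p = 0.00178, a 10.96-fold lower level) and -1.80 ± 0.36 in soleus vs EDL (adjusted p = 0.00697, 3.49-fold lower). In soleus vs psoas it was 1.65 ± 0.40 with an adjusted p of 0.0177, which did not pass the threshold. With only the trimmed libraries, 2 of EDL and 2 of psoas, the value of psoas vs EDL was -3.35 (adjusted p = 0.00302), and with only the untrimmed ones, 1 of each, it was -3.71 (adjusted p = 0.417, where no gene was called). The call of psoas vs EDL was lost without psoas 1 (adjusted p = 0.0102) or psoas 2 (0.012), and that of soleus vs EDL without EDL 1, 2, or 3, psoas 2, soleus 1, or soleus 4 (adjusted p between 0.0112 and 0.0224), with values between -2.25 and -1.62.

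**Figure D3:**
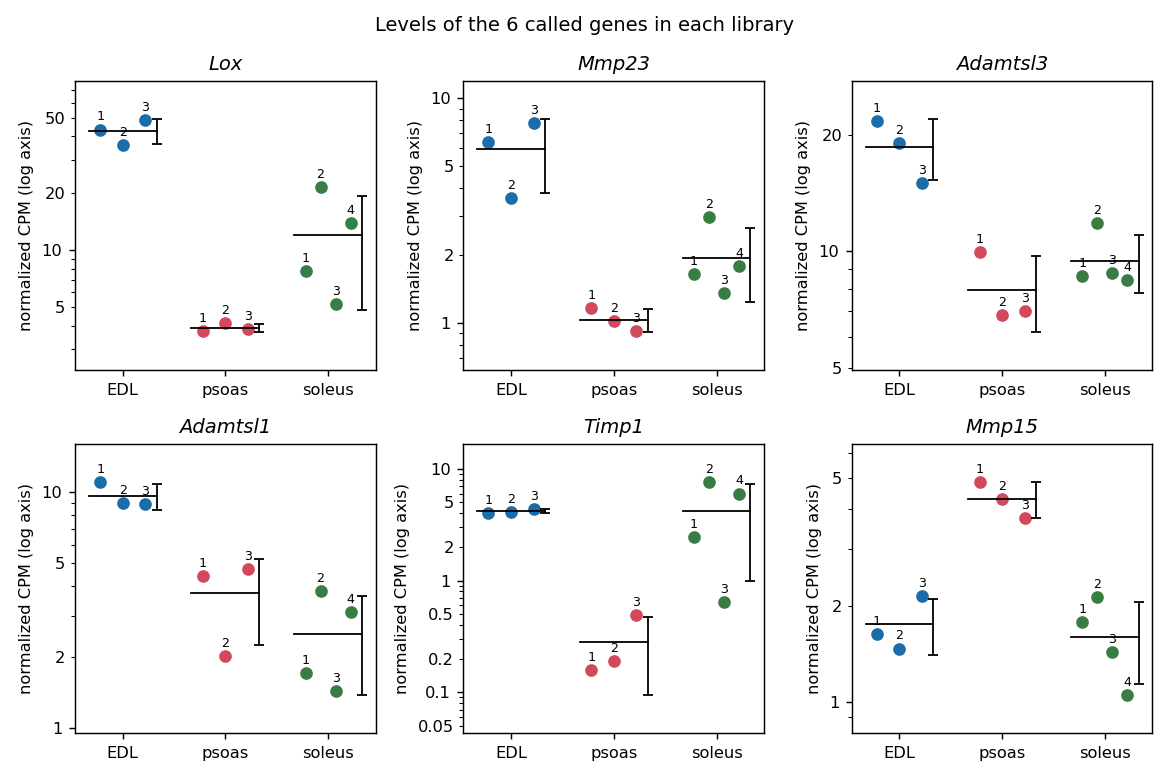
Normalized CPM (log axis) of the 6 called genes in each library, with replicate numbers beside the points, the mean as a line and the SD as a bar (n = 3, 3, and 4). Lox does not overlap between muscles, Timp1 is below 0.5 in all 3 psoas libraries, and Mmp15 is highest in psoas.

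The other 4 lysyl oxidases were also lowest in psoas on average, by smaller differences. Loxl2, which oxidizes collagen IV of basement membranes among other substrates, had 39.8, 28.5, and 31.0 normalized CPM in EDL, 13.9, 7.67, and 9.98 in psoas, and 12.9, 22.4, 3.67, and 14.9 in soleus. EDL lay above both other muscles, which overlapped each other, and the log2 fold change of psoas vs EDL was -1.65 ± 0.47 (adjusted p = 0.0436). Loxl1, which is needed for elastic fiber upkeep, had 6.47, 5.84, and 7.36 in EDL, 4.57, 2.66, and 2.83 in psoas, and 7.18, 10.3, 3.19, and 6.54 in soleus, and soleus spanned the range of EDL. Loxl3 differed by -1.91 ± 0.37 in psoas vs EDL (adjusted p = 0.0113) and by 1.45 ± 0.35 in soleus vs psoas (adjusted p = 0.0182), neither of which passed the threshold of 0.01. Loxl3 and the mitochondrial protease gene Htra2 overlap on opposite strands, and since the strand setting of the counting is not stated, reads of such pairs cannot be told apart.

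The makeup of the family differed between muscles. Per kilobase, Lox made up 45.3% (43.5 to 48.7%) of the summed level of the 5 lysyl oxidase genes in EDL, 18.9% (14.3 to 23.4%) in psoas, and 28.7% (22.5 to 31.3%) in soleus. Loxl2 made up the largest share in psoas, with 43.2% (38.5 to 46.9%). The summed level itself in EDL was 19.7 ± 2.05 normalized CPM per kilobase (SD, n = 3), against 4.45 ± 0.924 in psoas (n = 3) and 8.71 ± 4.71 in soleus (n = 4). Lox divided by Loxl2 ran from 1.23 to 1.78 in EDL, from 0.305 to 0.608 in psoas, and from 0.68 to 1.60 in soleus.

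**Figure D4:**
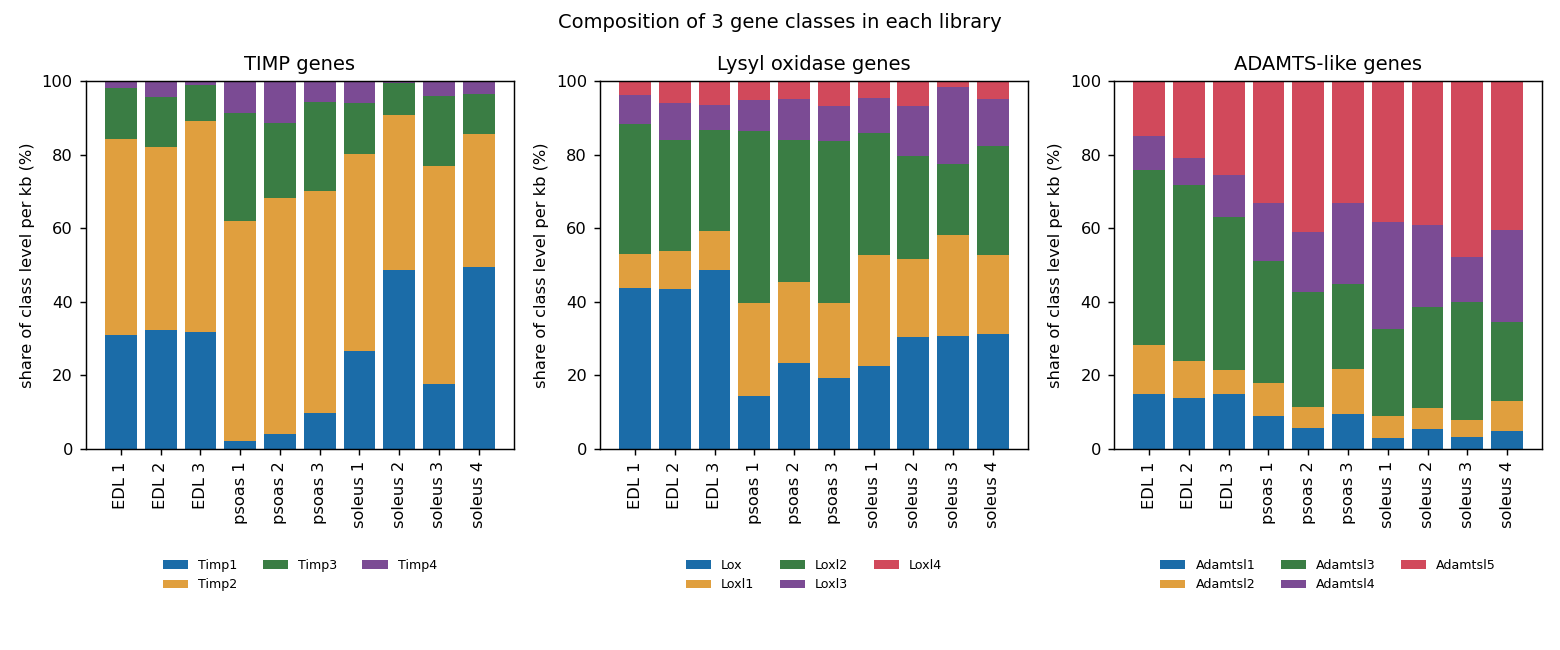
Share (%) of each gene in the summed level per kilobase of its class, 1 stacked bar per library, for the TIMP, lysyl oxidase, and ADAMTS-like genes. The Timp1 and Lox shares are smallest in the 3 psoas libraries except that the Lox share of psoas 2 (23.4%) is above that of soleus 1 (22.5%).

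Substrates and partners of the lysyl oxidases were measured in the same libraries. Of 22 substrates of lysyl oxidases and fiber assembly genes, 3 were called lower in psoas vs EDL (1.57% of all genes) and 2 higher in soleus vs psoas (2.99%). In soleus vs EDL none was called by edgeR or DESeq2, and 7 were lower at an unadjusted p under 0.05 (18.1% of all genes). Medians were -1.49 in psoas vs EDL, -0.55 in soleus vs EDL, and 0.91 in soleus vs psoas, against 0.01, -0.05, and 0.02 over all genes. Mfap4, a microfibril-associated protein, fell by 3.74 on the log2 scale in psoas vs EDL (8.64 ± 1.26 against 0.633 ± 0.219 normalized CPM, adjusted p = 0.00549) and was higher in soleus vs psoas (5.31 ± 3.53, log2 fold change 3.06, adjusted p = 0.00498). Fbln1, a fibulin of elastic fibers, fell by 1.88 in psoas vs EDL (adjusted p = 0.00805) and was higher by 1.68 in soleus vs psoas (adjusted p = 0.00534). Of 15 genes of procollagen processing, 5 were called lower in psoas vs EDL (1.57% of all genes) and 2 in soleus vs EDL (2.18%). In soleus vs psoas 2 were called higher (2.99%). The enhancer of procollagen cleavage Pcolce fell by 2.31 in psoas vs EDL (adjusted p = 0.00682), and the prolyl hydroxylase gene P3h2 fell by 2.27 there (adjusted p = 0.00937) and was higher by 3.92 in soleus vs psoas (adjusted p = 0.000217). In soleus vs EDL, where Lox was lower, P3h2 had 10.8 ± 4.19 against 3.41 ± 0.697 normalized CPM (log2 fold change 1.65 ± 0.36, adjusted p = 0.0101 by edgeR, which missed the threshold, and 0.000159 by DESeq2). P4ha1, a subunit of the main prolyl hydroxylase, fell by 1.43 in soleus vs EDL (adjusted p = 0.000385). Pcolce2 fell by 1.09 in soleus vs EDL (adjusted p = 0.00741) and was higher by 1.14 in soleus vs psoas (adjusted p = 0.00821).

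Among the matrix metalloproteinases, Mmp2, the gelatinase that also cuts collagen IV, made up most of the level, and the called genes, Mmp23 and Mmp15, were far less abundant. Mmp2 had 94.97, 80.1, and 71.4 normalized CPM in EDL, 36.4, 28.5, and 23.2 in psoas, and 50.5, 74.4, 23.7, and 54.4 in soleus. EDL lay above psoas throughout, while soleus overlapped with both. For Mmp2 the log2 fold change was -1.48 ± 0.34 in psoas vs EDL, with an edgeR adjusted p of 0.0195 that did not pass the threshold. It was 0.00334 without soleus 3, and between 0.0154 and 0.0738 without any 1 library of EDL or psoas. Of 22 alternative tests, settings, and subsets of the libraries, 2 called Mmp2 in psoas vs EDL. Per kilobase, Mmp2 held between 72.5 and 83.9% of the summed level of the 12 genes in every library. That sum in EDL was 30.6 ± 4.09 normalized CPM per kilobase (SD, n = 3), against 11.5 ± 2.35 in psoas (n = 3) and 18.4 ± 6.95 in soleus (n = 4).

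Mmp23, a membrane-anchored metalloproteinase that is released by its own processing (chromosome 4, 155650655 to 155653384, minus strand), was called in both comparisons with EDL. It had 6.38, 3.58, and 7.80 normalized CPM in EDL, 1.16, 1.01, and 0.921 in psoas, and 1.64, 2.96, 1.36, and 1.79 in soleus. The 3 muscles did not overlap, and EDL was highest and psoas lowest, the same order as for Lox. Its log2 fold change was -2.49 ± 0.37 in psoas vs EDL (adjusted p = 0.00356) and -1.57 ± 0.32 in soleus vs EDL (adjusted p = 0.00726). It was -2.18 with trimmed and -3.11 with untrimmed libraries alone in psoas vs EDL, neither of which was called (adjusted p = 0.0215 and 0.337). The call of psoas vs EDL was lost without EDL 1, psoas 1, 2, or 3 (adjusted p between 0.0137 and 0.0179), and that of soleus vs EDL without EDL 1, EDL 3, psoas 2, soleus 1, 3, or 4 (between 0.0117 and 0.0289).

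Mmp15, a membrane-type metalloproteinase (chromosome 8, 95352268 to 95375080, plus strand), was the only one of the 43 genes for which every psoas library lay above every EDL library, while Mmp9 and Timp4 also had their highest mean in psoas. It had 1.63, 1.47, and 2.14 normalized CPM in EDL, 4.86, 4.31, and 3.75 in psoas, and 1.78, 2.12, 1.44, and 1.06 in soleus. Psoas lay above both lower leg muscles, which overlapped. For Mmp15 the log2 fold change was -1.42 ± 0.27 in soleus vs psoas (adjusted p = 0.00479), and 1.32 ± 0.29 in psoas vs EDL, with an adjusted p of 0.0164 by edgeR, 0.0079 by limma-voom, and 0.000508 by DESeq2. The call of soleus vs psoas was lost without psoas 1, psoas 2, soleus 1, 3, or 4 (adjusted p between 0.0112 and 0.0217). Its share of the Mmp sum per kilobase was 1.08% (0.86 to 1.43%) in EDL, 6.98% (6.40 to 7.38%) in psoas, and 1.77% (1.02 to 2.75%) in soleus.

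Mmp14, the membrane-type enzyme that activates the Mmp2 precursor, had the same order of muscle means as Mmp2. It had 7.36, 4.79, and 6.04 normalized CPM in EDL, 2.74, 2.22, and 1.77 in psoas, and 2.12, 6.34, 2.63, and 4.28 in soleus, and EDL lay above psoas in all libraries (log2 fold change -1.41 ± 0.38, adjusted p = 0.0366). Mmp3, stromelysin 1 (chromosome 9, 7445822 to 7455975, plus strand), is named for its counts, after these were seen. It had 29, 37, and 11 counts in EDL, 0, 1, and 0 in psoas, and 10, 8, 7, and 3 in soleus. Its summed counts per summed library size were 45.8 times higher in EDL than in psoas (95% interval of counting error 7.97 to 1830), with an edgeR adjusted p of 0.0106, and 23.9 times higher in soleus than in psoas (3.95 to 976). Its single count in psoas sets the width of these intervals. Mmp3 reached 10 counts only in EDL 1 to 3 and soleus 1, so that it met the count filter through the muscles where it is high. The ratios and the adjusted p are not independent of that filter. With Mmp3 at its lower limit (-2.99 and 1.98 on the log2 scale), the medians of the 43 genes stayed at -1.01 in psoas vs EDL and 0.68 in soleus vs psoas. These limits lie on the same side of the medians as the fitted values, so that the medians could not change. Mmp28 averaged above 1 normalized CPM only in EDL (0.867 to 1.21, with soleus 2 at 1.32 above that range). Mmp9, gelatinase B, did so only in psoas (0.85 to 1.59, with EDL 2 at 1.55 inside that range). Mmp11, Mmp12, and Mmp17 stayed at or below a mean of 1 in all 3 muscles, and Mmp16 and Mmp19 ran from 0.239 to 2.14 and from 0.957 to 3.92 over the 10 libraries.

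Of 20 measured genes for activation and cell-surface control of metalloproteinases, none was called in soleus vs EDL by edgeR. There 5 were lower and 1 higher at an unadjusted p under 0.05 (18.1% and 17% of all genes), and 2 were lower by DESeq2 (4.34%). By edgeR, 2 genes were called both lower in psoas vs EDL (1.57% of all genes) and higher in soleus vs psoas (2.99%). These were Serpinf1, a serpin with no inhibitory activity, with 112 ± 2.81, 13.5 ± 3.63, and 44.4 ± 21.9 normalized CPM in EDL, psoas, and soleus (log2 fold change -3.05 in psoas vs EDL, adjusted p = 0.00202, and 1.71 in soleus vs psoas, adjusted p = 0.00844), and Thbs2, a thrombospondin that binds Mmp2. Thbs2 had 47.2 ± 10.6, 7.09 ± 0.955, and 35.3 ± 14.8 (log2 fold change -2.74, adjusted p = 0.00154, and 2.33, adjusted p = 0.000841). The list had medians of -0.69, -0.45, and 0.35 in psoas vs EDL, soleus vs EDL, and soleus vs psoas. Over all genes these were 0.01, -0.05, and 0.02. Of 20 other matrix proteases measured, Ctsk, cathepsin K, was called lower in psoas vs EDL (-3.01, adjusted p = 0.00144) and higher in soleus vs psoas (1.98, adjusted p = 0.00273), and Fap, a fibroblast surface protease, was called lower in soleus vs EDL (-1.49, adjusted p = 0.00301). The medians of that list were -0.68, -0.58, and 0.25.

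Timp1, an inhibitor of most metalloproteinases that is known as an inducible gene, was nearly absent from psoas. It lies on chromosome X (20870166 to 20874735, plus strand) within the span of Syn1 on the other strand, a gene not analyzed here. Timp1 had 4.06, 4.15, and 4.39 normalized CPM in EDL, 0.158, 0.19, and 0.496 in psoas, where it rested on 6, 3, and 7 counts, and 2.46, 7.63, 0.638, and 6.02 in soleus. The EDL libraries were close together, soleus spread from just above psoas to above EDL, and psoas lay below all others. The log2 fold change was 4.05 ± 0.77 in soleus vs psoas (adjusted p = 0.00507) and -4.02 ± 0.79 in psoas vs EDL, where the adjusted p of 0.0117 missed the threshold by edgeR and was 2.69e-06 by DESeq2. Without soleus 3 the edgeR adjusted p of psoas vs EDL was 0.00142, and in the trimmed libraries alone it was 0.00361. Without any 1 library of EDL or psoas it lay between 0.0112 and 0.046, and 5 of 22 alternatives called Timp1 there. The call of soleus vs psoas was lost without psoas 1, psoas 2, soleus 2, or soleus 4 (adjusted p between 0.013 and 0.0326), by limma-voom (0.0498), with the animal as a random effect in limma-voom (0.0339), with read trimming (0.0300) or low read mapping (0.0102) as a covariate, and in the fit of soleus and psoas alone (0.0149).

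For the other 3 inhibitors no edgeR adjusted p was below 0.05 in any comparison. Timp2, which also takes part in Mmp2 activation, had 30.7, 28.2, and 34.7 normalized CPM in EDL, 19.98, 13.8, and 13.4 in psoas, and 21.8, 29.1, 9.49, and 19.3 in soleus. EDL lay above psoas in all libraries and overlapped with soleus. Timp3, which binds to the matrix and also blocks ADAMTS proteases, had 16.7, 15.9, and 12.4 in EDL, 20.5, 9.07, and 11.3 in psoas, and 11.9, 12.5, 6.38, and 12.4 in soleus, with all 3 muscles overlapping. Timp4 ran from 0.628 to 4.46 over the 10 libraries with no separation. Timp3 and Timp4 lie within the synapsin genes Syn3 and Syn2 on the opposite strand. Per kilobase, Timp1 made up 31.7% (31.0 to 32.2%) of the 4 inhibitors in EDL, 5.25% (2.08 to 9.78%) in psoas, and 35.5% (17.5 to 49.3%) in soleus, and the summed level was 14.9 ± 0.537 (SD, n = 3), 6.60 ± 1.72 (n = 3), and 11.5 ± 5.75 (n = 4) normalized CPM per kilobase. Mmp2 divided by Timp2 ran from 2.38 to 3.57 in EDL, from 1.9996 to 2.38 in psoas, and from 2.67 to 3.26 in soleus.

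None of the 17 ADAMTS proteases was called in any comparison by edgeR, although all 17 had a log2 fold change below 0 in psoas vs EDL (median -0.87, from -2.76 to -0.07). At an unadjusted p under 0.05, 7 were lower in psoas vs EDL (15.4% of all genes) and 6 lower in soleus vs EDL (18.1%). In soleus vs psoas 3 were higher (15.1%). By DESeq2, Adamts3 and Adamts6 were called lower in psoas vs EDL (4.13% of all genes) and Adamts6 and Adamts8 higher in soleus vs psoas (4.61%). DESeq2 called none of the 17 in soleus vs EDL (9.43% of all genes in either direction). Adamts1, which cuts versican and aggrecan, was the most abundant per kilobase and had 63.3, 58.3, and 50.7 normalized CPM in EDL, 48.9, 29.7, and 15.2 in psoas, and 70.4, 52.4, 38.1, and 69.4 in soleus. EDL lay above psoas, whose libraries were spread widely, and overlapped with soleus. Adamts13, the protease of von Willebrand factor, had 12.9, 8.52, and 8.90 in EDL, 7.81, 9.64, and 11.3 in psoas, and 11.9, 14.0, 22.3, and 9.501 in soleus, and was among the 4 genes for which soleus 3 was the highest soleus library.

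Adamts8, a protease known to curb vessel growth, was spread widely among the soleus libraries. It had 4.72, 5.65, and 4.67 normalized CPM in EDL, 0.264, 1.205, and 3.04 in psoas, and 7.94, 24.9, 1.04, and 29.9 in soleus. Soleus 1, 2, and 4 lay above all libraries of the other muscles, and soleus 3 lay within the range of psoas. In soleus vs psoas the log2 fold change was 3.54 ± 0.98 (adjusted p = 0.0332), and it was called without soleus 3 (3.90, adjusted p = 0.00627). Of 21 alternatives, 2 called Adamts8 there, that one and DESeq2 (adjusted p = 0.00784). Adamts8 and Adamts15 lie 20.1 kb apart on chromosome 9 on opposite strands, and Adamts15 ran only from 1.44 to 4.27, so that Adamts8 divided by Adamts15 per kilobase came to 2.48 to 3.35 in EDL, 0.346 to 1.97 in psoas, and 12.4, 13.4, 1.08, and 19.0 in soleus. Adamts1 and Adamts5, 53.1 kb apart on chromosome 16, also differed. Adamts1 divided by Adamts5 per kilobase ran from 5.02 to 5.32 in EDL, from 2.61 to 4.07 in psoas, and from 5.12 to 13.2 in soleus.

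Adamts6, which binds to fibrillin microfibrils, differed by -2.06 ± 0.41 in psoas vs EDL (adjusted p = 0.0127) and by 1.73 ± 0.40 in soleus vs psoas (adjusted p = 0.0148), and its psoas libraries (0.496 to 1.14) lay below all others (1.51 to 4.00). Adamts3, a procollagen N-proteinase, had 2.85, 2.71, and 1.48 normalized CPM in EDL, 0.449, 0.254, and 0.283 in psoas, and 0.479, 1.14, 0.0797, and 1.32 in soleus (psoas vs EDL -2.76 ± 0.65, adjusted p = 0.022). Adamts16 also averaged above 1 only in EDL, with 1.91, 1.02, and 0.439 in EDL 1 to 3, and EDL overlapped with both other muscles. Adamts2, the main procollagen I N-proteinase, ran from 18.6 to 29.2 in EDL and from 8.56 to 14.0 in psoas, with soleus between 3.91 and 18.8, and Adamts5 from 19.4 to 24.3, 11.8 to 37.2, and 10.7 to 15.2. Adamts9, Adamts12, and Adamts20 ran from 6.98 to 15.2 in EDL and from 0.877 to 11.54 in soleus, and Adamts10 from 3.84 to 5.74 and from 1.67 to 3.69. Adamts4, Adamts7, Adamts14, and Adamts17 stayed below a mean of 1 in all muscles, and Adamts7 overlaps on the opposite strand with Tbc1d2b. The summed level of the 17 genes per kilobase in EDL was 23.5 ± 2.85 (SD, n = 3), against 13.9 ± 4.15 in psoas (n = 3) and 22.6 ± 5.34 in soleus (n = 4), so that EDL and soleus overlapped.

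Of 11 measured substrates of ADAMTS proteases, 2 were called lower in psoas vs EDL (1.57% of all genes) and 1 lower in soleus vs EDL (2.18%). In soleus vs psoas 1 was called higher (2.99%). Medians in these 3 comparisons were -1.35, -0.33, and 0.67, against 0.01, -0.05, and 0.02 over all genes. Comp, cartilage oligomeric matrix protein and also one of the tendon markers, had 34.2 ± 6.71 normalized CPM in EDL, 1.37 ± 0.877 in psoas, and 27.2 ± 10.01 in soleus (psoas vs EDL -4.77, adjusted p = 0.000836, and soleus vs psoas 4.44, adjusted p = 0.00022). Dcn, decorin, which coats collagen fibrils, fell by 1.70 in psoas vs EDL (adjusted p = 0.00654) and by 1.57 in soleus vs EDL (adjusted p = 0.00269).

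Among the ADAMTS-like genes, called differences were found for Adamtsl1 and Adamtsl3, both highest in EDL, while Adamtsl4 and Adamtsl5 had their highest mean in soleus. Adamtsl3 (chromosome 7, 82335694 to 82614450, plus strand) had 21.7, 19.1, and 15.05 normalized CPM in EDL, 9.97, 6.85, and 7.01 in psoas, and 8.62, 11.8, 8.77, and 8.45 in soleus. EDL lay above both other muscles, which overlapped. Its log2 fold change was -1.22 ± 0.21 in psoas vs EDL (adjusted p = 0.00747) and -0.98 ± 0.20 in soleus vs EDL (adjusted p = 0.00663), which was just under the fold threshold. Within trimmed and within untrimmed libraries it was -1.28 and -1.14 in psoas vs EDL, without a call (adjusted p = 0.0345 and 0.477). The call of psoas vs EDL was lost without EDL 1, EDL 2, psoas 2, psoas 3, soleus 1, or soleus 4 (adjusted p between 0.0123 and 0.0322), with the animal as a random effect in limma-voom (0.0109), and in the fit of psoas and EDL alone (0.0307). Adamtsl1 (chromosome 4, 85514172 to 86428385, plus strand) had 11.1, 9.01, and 8.90 in EDL, 4.41, 2.03, and 4.74 in psoas, and 1.71, 3.80, 1.44, and 3.11 in soleus, and EDL was again above the other muscles. The log2 fold change was -1.91 ± 0.36 in soleus vs EDL (adjusted p = 0.00461), a call lost without EDL 1, EDL 2, soleus 1, or soleus 4 (adjusted p between 0.0117 and 0.019), and -1.37 ± 0.38 in psoas vs EDL (adjusted p = 0.0419).

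Adamtsl5, a microfibril-binding member, had 4.18, 5.11, and 5.66 normalized CPM in EDL, 6.12, 5.52, and 6.09 in psoas, and 8.48, 10.4, 7.97, and 9.71 in soleus, and every soleus library lay above the others, soleus 3 included. The log2 fold change was 0.88 ± 0.18 in soleus vs EDL (adjusted p = 0.00737) and 0.63 ± 0.18 in soleus vs psoas (adjusted p = 0.0371), both below the fold threshold. Adamtsl4, which promotes fibrillin microfibril formation, had 2.24, 1.56, and 2.20 in EDL, 2.56, 1.97, and 3.61 in psoas, and 5.75, 5.23, 1.83, and 5.28 in soleus. Soleus 1, 2, and 4 lay above the other muscles and soleus 3 among them, and the log2 fold change of soleus vs EDL was 1.19 ± 0.37 (adjusted p = 0.0431), and 1.39 (adjusted p = 0.00756) without soleus 3. That was the only 1 of 21 alternatives in which Adamtsl4 was called in soleus vs EDL. Adamtsl2 ran from 1.28 to 6.26 over the 10 libraries. Adamtsl5 made up 20.6% (15.1 to 25.7%) of the 5 genes per kilobase in EDL, 35.8% (33.1 to 41.0%) in psoas, and 41.5% (38.3 to 47.8%) in soleus, and Adamtsl3 45.8% (41.7 to 47.9%), 29.1% (23.2 to 33.1%), and 26.2% (21.5 to 32.1%). The sum of the class per kilobase in EDL was 5.23 ± 0.607 (SD, n = 3), against 3.54 ± 0.605 in psoas (n = 3) and 4.72 ± 0.875 in soleus (n = 4), and soleus overlapped with both other muscles.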

How the data were processed

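The authors extracted total RNA from muscles kept in RNAlater, made stranded libraries depleted of ribosomal RNA, and sequenced read pairs over several runs whose assignment to libraries is not given in the sources used here. Per the study's methods and the submitters' processing notes, reads of 4 libraries were trimmed (Trimmomatic 0.32), all were aligned to GRCm38 with TopHat 2.1.1, and gene counts were taken in R. The authors deposited raw counts per gene, 1 file per library, filtered so that each gene reached 10 reads in 3 or more libraries, which all 16112 genes met on test. The handling of strand and of reads with several alignments is not given.

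Symbols, positions, and exon lengths came from GENCODE M21 (GRCm38), with a symbol for 16032 genes, and promoter sequences from RefSeq. Counts were fitted with edgeR 4.0.16 (R 4.3.3, quasi-likelihood test, TMM, 1 fit over 10 libraries, no covariate), with Benjamini-Hochberg adjustment over all 16112 genes and a call where the adjusted p was below 0.01 with more than a 2-fold difference. SE is the log2 fold change divided by the square root of F. Total counts ran from 12737971 to 50431713, and deeper libraries carry less counting error. On simulated counts (psoas vs EDL, 16112 genes, 200 changed by 3 on the log2 scale), edgeR recovered 157 (78.5%) with 1 false call, DESeq2 1.42.0 recovered 172 (86%) with 14, and limma-voom (limma 3.58.1) 153 (76.5%) with 2. Alternatives were these tests, other normalizations and filters, covariates for trimming, low read mapping, replicate number, and animal, and subsets of the libraries. Whether replicates of a muscle are separate mice is given by the animal codes only, and p-values measure the spread between these samples.

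The genes, lists, and markers were chosen with earlier results of these data known. The value in every library is given for called genes and for the 3 genes with the highest level per kilobase of each class, other genes are named where a mean passed 1 normalized CPM in 1 muscle only, and from each list the 2 called genes with the largest change per comparison are named. Mmp3, Adamts6, Loxl3, and ranges of other genes were added after their values were seen. Intervals and floors cover counting error only.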

Additional observations from a re-analysis of the deposited data

Results flagged for a closer look

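The 4 soleus libraries were examined for each of the 43 genes, and in 4 genes 1 library stood apart from the other 3 beyond the critical value of Dixon's ratio, which chance gives in about 1 in 20 groups. Soleus 3 was lowest for Timp3 (6.38 normalized CPM, against 11.9 to 12.5 in the others), Adamts16 (0.159, against 0.633 to 0.718), and Adamtsl4 (1.83, against 5.23 to 5.75). Soleus 2 was highest for Adamtsl3 (11.8, against 8.45 to 8.77). Soleus 3 is the shallowest library, comes from the youngest mouse, and has the lowest RNA integrity of the 4 soleus libraries. The part of each of these in the values was not tested.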

How the results depend on the processing

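The 25 log2 fold changes of the 43 genes with an edgeR adjusted p under 0.05 (Mmp3 left out) had the same sign under all alternatives run, and the calls changed. The number of the 43 genes below 0 ran from 33 to 38 in psoas vs EDL, from 30 to 37 in soleus vs EDL, and from 8 to 17 in soleus vs psoas. Counts of all genes called follow in parentheses. Of 3 calls in psoas vs EDL (340), DESeq2 gave 13 (1095), the looser threshold (adjusted p under 0.05, no fold) 13 (1789), read trimming as a covariate 7 (605), the replicate block 1 (146), and untrimmed libraries only 0 (0). Of 3 calls in soleus vs EDL (929), the looser threshold gave 6 (2995), the fit of 2 muscles alone 1 (876), and trimming as a covariate (371), the replicate block (586), and untrimmed libraries only (48) 0 each. Of 2 calls in soleus vs psoas (917), DESeq2 gave 7 (1382), the looser threshold 8 (2340), limma-voom (818) and the animal as random effect (1005) 1 each, and the fit of 2 muscles alone (729), trimming (566) or low read mapping (735) as a covariate, the replicate block (539), and untrimmed libraries only (33) 0 each. Without 1 library each, the counts ran from 0 to 8, 0 to 4, and 0 to 3 (61 to 963, 385 to 1511, and 493 to 964). Untrimmed libraries only leave 1 library each of EDL and psoas, whose spread is then taken from soleus, and trimmed libraries only leave no soleus. The cause of the other changes was not tested.

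Lox in psoas vs EDL was called in 19 of 22 alternatives, Mmp23 in 15, and Adamtsl3 in 11. In soleus vs EDL, of 21 alternatives, Adamtsl1 was called in 14, Lox in 11, and Mmp23 in 10, and in soleus vs psoas Mmp15 in 11 and Timp1 in 10. The 21 values given for genes of the lists had the same sign in all alternatives and were called in 5 to 21 of them. Upper-quartile normalization moved the median of all genes in soleus vs EDL to -0.14 and that of the 43 genes to -0.79. Same-numbered libraries come mostly from different animal codes and their deviations correlated between -0.234 and 0.503, so that the number does not pair them, and the counts under the replicate block (1, 0, and 0) are given for completeness. A stricter filter on low counts (filterByExpr) kept 41 of the 43 genes. The depth limits genes near 0, such as Mmp3 and Timp1 in psoas.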
